A study of Mus musculus with 9 samples.

Results

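The genes described here break down heme and handle iron. They are the heme oxygenases Hmox1 and Hmox2, the biliverdin reductases Blvra and Blvrb, the ferritin chains Fth1 and Ftl1, the iron exporter Slc40a1, the divalent metal transporters Slc11a1 and Slc11a2 and the transferrin receptor Tfrc. Every probe set whose only gene symbol in the platform annotation was one of these 10 names was taken, which gave 19 of the array's 45101 probe sets and covered 9 of the 10 genes, out of 18194 genes with such a probe set. Ftl1 was not analysed here, because each of the 3 probe sets annotated to it also carries other symbols. Of the 19 probe sets, 3 are Tfrc control probe sets of the array, and the other 16 entered the tests.

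Heme oxygenases open the heme ring and release iron, carbon monoxide and biliverdin, and biliverdin reductases turn biliverdin into bilirubin. Free iron is then stored in ferritin or leaves the cell through ferroportin, the product of Slc40a1, while the transferrin receptor and the metal transporters bring iron in or move it out of endosomes. Hmox1, Blvrb, Slc40a1 and the ferritin genes are known targets of Nrf2, the transcription factor encoded by Nfe2l2, and macrophages, which recycle the heme of red cells, carry high levels of many of these transcripts.

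RNA was hybridised to 9 Affymetrix mouse expression arrays, 3 in each of 3 groups of cultured mouse lung cells. The groups were Nrf2-/- cells supplemented with GSH, commonly short for glutathione (the dose and time are not given in the labels, and their treatment field names no agent), Nrf2-/- cells without it, and Nrf2+/+ cells. All are labelled as type II cells (the surfactant-making epithelium) of female ICR10 mice aged 2 months, depleted of macrophages on IgG plates and of fibroblasts by adherence and then grown for 5 days with keratinocyte growth factor. The labels name no tissue-specific deletion for the knockout, and no wild-type group with GSH was analysed here. A number in the sample titles places 2 arrays of each group in what is called set 2 here and 1 array in set 3, and set entered the model as a term. Each sample is labelled as 1 tissue, without saying whether the samples of a group are different mice, so the p-values reflect sample-to-sample spread that may be technical. Values are intensities in arbitrary units, given array by array in the order of the replicate numbers or as mean ± SD with n = 3, and differences are on the log2 scale from limma with p adjusted over all 22519 probe sets fitted. Intensities of different probe sets are not comparable with each other.

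The labels were checked first. Nfe2l2 read by probe set 1416543_at 33.3 to 46.2 on the arrays of knockout cells with GSH and 28.7 to 77.4 on those of knockout cells, against 3879 to 4173 on wild-type arrays. Its dim second probe set, 1457117_at, went against this, with 121 to 188.9 with GSH and 34.4 to 68.6 in knockout against 35.8 to 51.6 in wild type. Xist, the RNA of the inactive X chromosome, averaged 3510.0 ± 1112 with GSH and 3203 ± 1248 in knockout against 157 ± 28.2 in wild type, and the Y-linked Eif2s3y averaged 7.43 ± 7.68, 9.27 ± 13.1 and 801 ± 121 in the same order, although all mice are labelled female. In both comparisons with wild type, genotype and this difference cannot be told apart. Sftpc, the surfactant gene that defines type II cells, was above the level of the array's bacterial control probe sets on 3 of 3 arrays in each knockout group (108 ± 30.3 with GSH and 89.1 ± 48.7 in knockout) and on 0 of 3 wild-type arrays (37.3 ± 10.3). By their means 5 of the 9 type II genes measured had this order of groups, and others, such as Sftpd and Sftpb, were lowest in knockout. Sftpd averaged 349 ± 37.1 with GSH and 218 ± 56.1 in knockout, against 448 ± 52.2 in wild type (-1.06 in knockout against wild type, limma adjusted p = 0.000346), and Sftpb 356 ± 96.1 and 241 ± 99.8 against 338 ± 101. Both were above the control level on every array, and the 9 genes summed to 4369 to 4968 with GSH and 3228 to 3544 in knockout, against 2967 to 3571 in wild type. All 19 macrophage markers measured were above that level on every array, and their summed intensity was 159254 to 188175 with GSH and 122015 to 143500 in knockout, against 74161 to 76693 in wild type. The 6 general epithelial markers summed to 65757 to 69246 with GSH and 13468 to 14802 in knockout, against 47024 to 49391 in wild type, and the 12 fibroblast markers to 51222 to 60907, 107374 to 144475 and 87917 to 93092 in that order. The part of these mixtures in the results below was not tested, and in a bulk sample fewer cells of a type and less RNA per cell cannot be told apart.

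**Figure D1:**
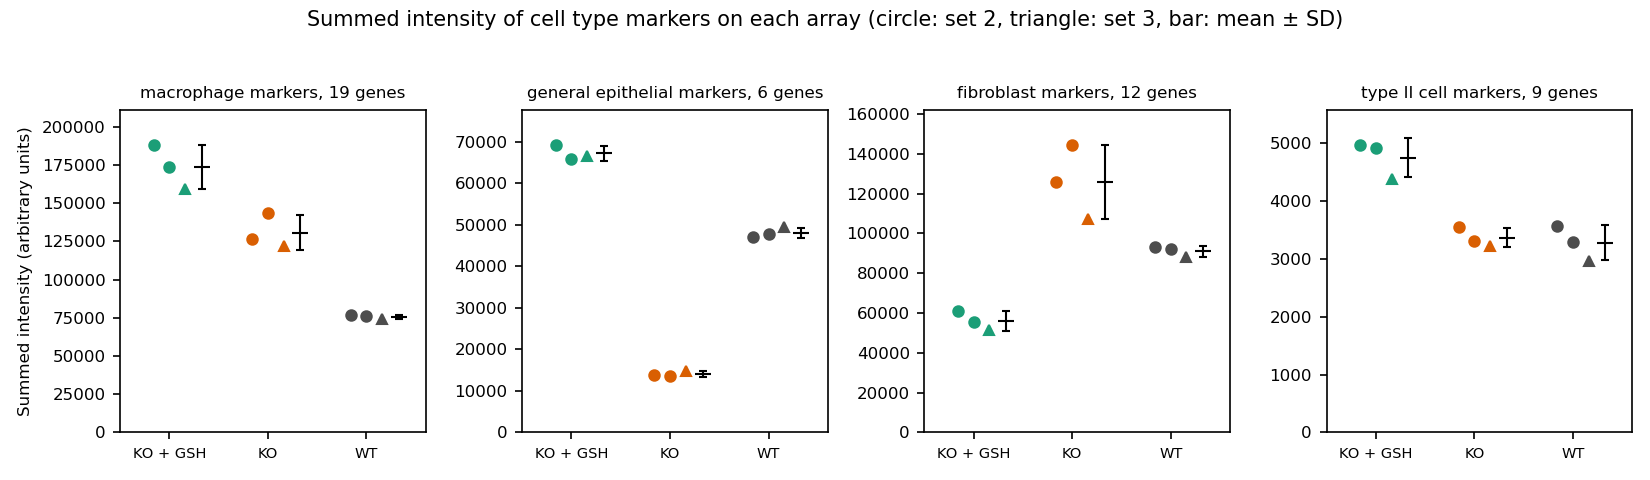
Summed intensity (arbitrary units) of the marker genes of 4 cell types on each of the 9 arrays, with knockout plus GSH, knockout and wild type from left to right. Circles are set 2, triangles set 3, and bars mean ± SD over 3 arrays. Macrophage markers stand lowest in wild type (74161 to 76693), and general epithelial markers lowest in knockout (13468 to 14802).

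Of the 16 probe sets, 9 were higher and 0 lower by limma in knockout cells with GSH than in knockout cells (also 0 lower at an unadjusted p under 0.05), where 35.4% of all probe sets fitted were called, 18.4% higher and 17.0% lower. The calls came from 5 genes, with several probe sets each of Tfrc and Slc11a2. That count of 9 was 5 with the replicate number as a block, 2 without the set term, and 5 without knockout replicate 4 or without replicate 4 of the GSH group. Between knockout and wild type 5 were higher and 4 lower, where 29.1% of all were called, 14.6% in each direction. Between knockout with GSH and wild type 7 were higher and 4 lower, where 44.7% of all were called, 22.5% higher and 22.3% lower. The median difference of the 16 was 0.26 with GSH against knockout, beside 0.04 over all probe sets fitted, 0.25 with GSH against wild type, beside 0.02, and -0.18 in knockout against wild type, beside 0.00 (0.0026). In every comparison all calls (9, 11 and 9 in that order) had the same direction in set 2 and in set 3. The arrays did not overlap for 6 probe sets higher and 1 lower with GSH against knockout (33.6% of all, 17.2% higher and 16.4% lower), for 7 and 4 with GSH against wild type (43.4% of all, 22.3% and 21.1%), and for 4 and 6 in knockout against wild type (30.2% of all, 15.8% and 14.4%). The comparisons share arrays pairwise and are not independent of each other.

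**Figure D2:**
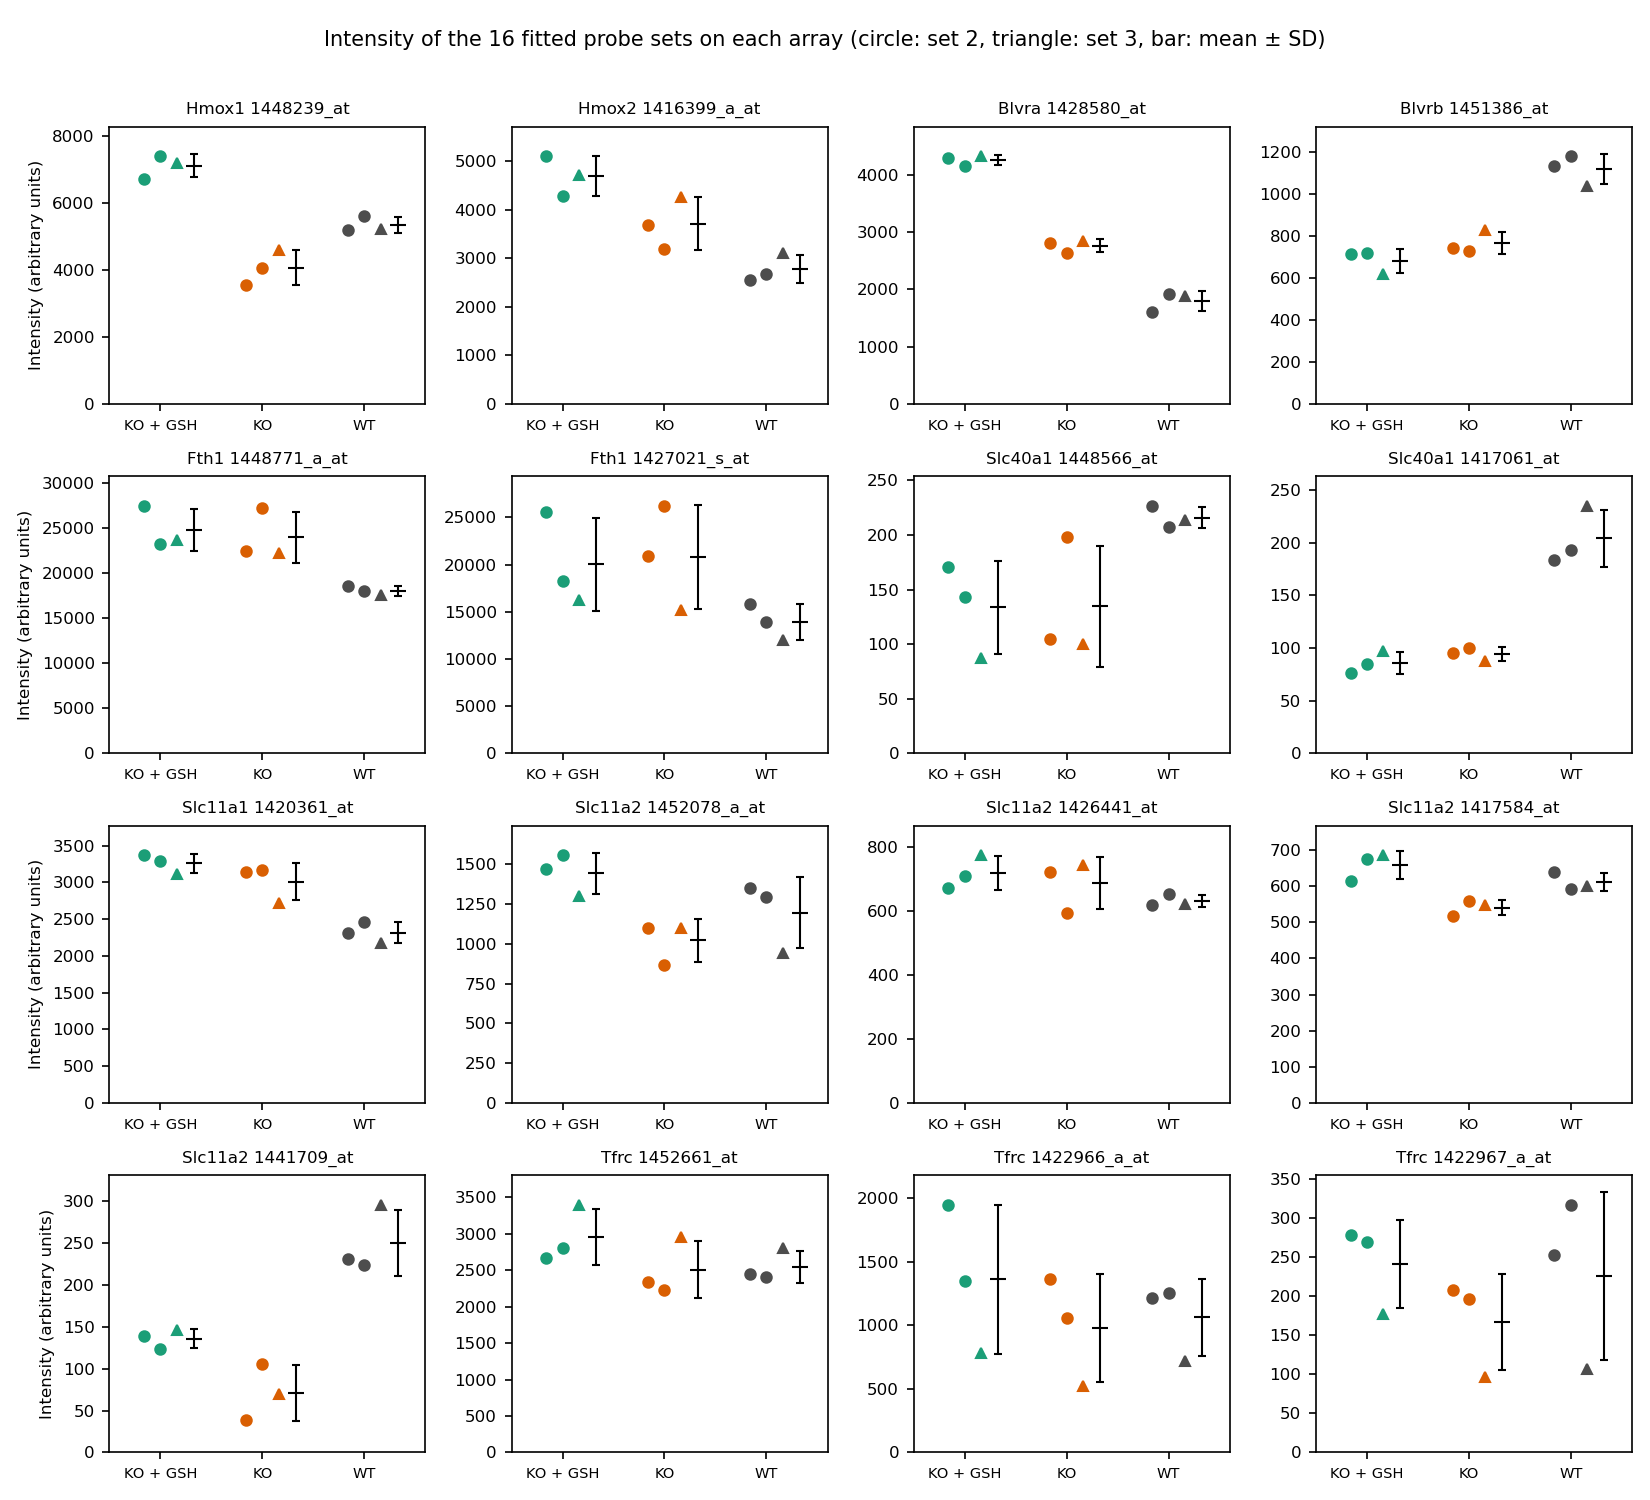
Intensity (arbitrary units, linear axes from 0) of the 16 probe sets on each array, 1 panel per probe set, with knockout plus GSH, knockout and wild type from left to right. Circles are set 2, triangles set 3, and bars mean ± SD over 3 arrays. Blvra falls into 3 separate levels (4165 to 4329, 2631 to 2853 and 1603 to 1925), while Hmox1 is lowest in knockout (3548 to 4582).

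Hmox1, the inducible heme oxygenase, was lowest in knockout cells and highest in knockout cells with GSH. Its signals were 6723, 7395 and 7208 with GSH, 3548, 4064 and 4582 in knockout, and 5198, 5625 and 5223 in wild type, so that no 2 groups overlapped. Knockout cells with GSH stood 1.75-fold above knockout cells (7109 ± 347 against 4064 ± 517, log2 difference 0.81 with SE 0.084, limma adjusted p = 1.58e-05). Knockout cells stood below wild type at 5348 ± 239 (-0.40, adjusted p = 0.00408 by limma), by -0.51 within set 2 and -0.19 within set 3. Knockout cells with GSH were also above wild type (0.41, limma adjusted p = 0.00202). All 6 general epithelial markers had the same order of group means as Hmox1. So did 2 of the 19 macrophage markers, Itgax (3387 ± 172 with GSH, 914 ± 102 in knockout and 2071 ± 159 in wild type) and Siglecf (517 ± 129, 133 ± 11.9 and 471 ± 102 in that order), while the macrophage sum, which the brightest probe sets carry, was lowest in wild type. The part of either cell type in the Hmox1 result was not tested. Over the 9 arrays the gene-centred pattern closest to that of Hmox1 was that of Lipa, which encodes lysosomal acid lipase (root mean square difference 0.10 on the log2 scale). Plxnb1 and S100a1 came next, both also at 0.10.

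Hmox2, the constitutive heme oxygenase, rose in both knockout groups. It read 5108, 4282 and 4719 with GSH, 3682, 3185 and 4272 in knockout and 2562, 2669 and 3115 in wild type. The groups were apart, although the highest knockout array (4272) lay just under the lowest array with GSH (4282). The differences were 0.35 with GSH against knockout (SE 0.091, limma adjusted p = 0.0112), 0.41 in knockout against wild type (adjusted p = 0.00583 by limma) and 0.76 with GSH against wild type (limma adjusted p = 3.83e-05). Without the set in the model the first and the second missed the threshold (adjusted p = 0.0869 and 0.0645 by limma). The 2 heme oxygenase genes thus moved in opposite directions in knockout cells and in the same direction with GSH.

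Blvra, which encodes biliverdin reductase A, stepped up over the 3 groups, lowest in wild type and highest with GSH. Its signals were 4289.7, 4165 and 4329 with GSH, 2819, 2631 and 2853 in knockout, and 1603, 1925 and 1883 in wild type. It was 1.54-fold higher with GSH than in knockout (log2 difference 0.62 with SE 0.074, limma adjusted p = 5.06e-05) and 1.53-fold higher in knockout than in wild type (0.62, adjusted p = 8.71e-05 by limma). Within set 2 and set 3 the values were 0.63 and 0.60 in each of these comparisons. With GSH against wild type the difference was 1.24 (limma adjusted p = 1.21e-07). The summed macrophage markers had the same order of groups, and the marker genes Cd68 (10672 ± 899.7 with GSH, 6341 ± 446 in knockout and 3727 ± 106 in wild type) and Csf1r (15125 ± 2346, 9151 ± 2041 and 5818 ± 269) stepped likewise, as did 12 of the 19 macrophage markers by their means. Another 5, Marco and C1qc among them, averaged highest in knockout, and Siglecf and Itgax averaged lowest there. With GSH against knockout 11 of the 19 were called higher, 2 lower and 6 not called.

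Blvrb, which encodes biliverdin reductase B, went the other way. It read 712, 717 and 617 with GSH and 743, 729 and 828 in knockout, against 1134, 1179.8 and 1039 in wild type. Both knockout groups lay wholly below wild type, by -0.71 with GSH (SE 0.094, limma adjusted p = 8.24e-05) and by -0.54 without it (adjusted p = 0.00125 by limma). Between the knockout groups the difference was -0.17 with a 95% interval of -0.38 to 0.04 (limma adjusted p = 0.191), of which -0.04 was measured in set 2 and -0.42 in set 3.

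Because the 2 reductase genes moved apart, the 250 bases before a transcript start of each are shown, from RefSeq on GRCm38.p6, plus strand in both cases. Capitals mark the core of the antioxidant response element to which Nrf2 binds, TGACNNNGC. It was searched on both strands together with the AP-1 motif TGANTCA, and 1 stretch can match both. The Blvra window is chr2:127070407-127070656 and the Blvrb window chr7:27447728-27447977, the first of its 2 windows.
Blvra: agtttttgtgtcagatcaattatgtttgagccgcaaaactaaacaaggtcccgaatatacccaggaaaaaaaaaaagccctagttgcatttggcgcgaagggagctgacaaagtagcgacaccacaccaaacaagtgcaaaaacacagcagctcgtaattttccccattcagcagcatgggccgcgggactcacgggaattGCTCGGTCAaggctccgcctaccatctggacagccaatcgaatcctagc
Blvrb: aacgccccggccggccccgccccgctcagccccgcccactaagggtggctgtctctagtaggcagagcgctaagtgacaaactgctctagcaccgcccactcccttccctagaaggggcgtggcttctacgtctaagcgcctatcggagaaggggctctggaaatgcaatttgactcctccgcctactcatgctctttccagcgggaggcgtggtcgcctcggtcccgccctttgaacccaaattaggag
The Blvra match lies on the minus strand, 49 to 41 bases before the start. Windows were found for 7 of the 10 genes, 12 windows in all. Hmox1, Slc40a1 and Slc11a2 had no window and were not searched. Of the 12 windows of 300 bases, which include 50 after the start, 1 held TGACNNNGC and 0 held TGANTCA. Over all 32851 windows 12.4% held TGACNNNGC and 7.81% held TGANTCA. A match of letters is a description and not a measured site.

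**Figure D3:**
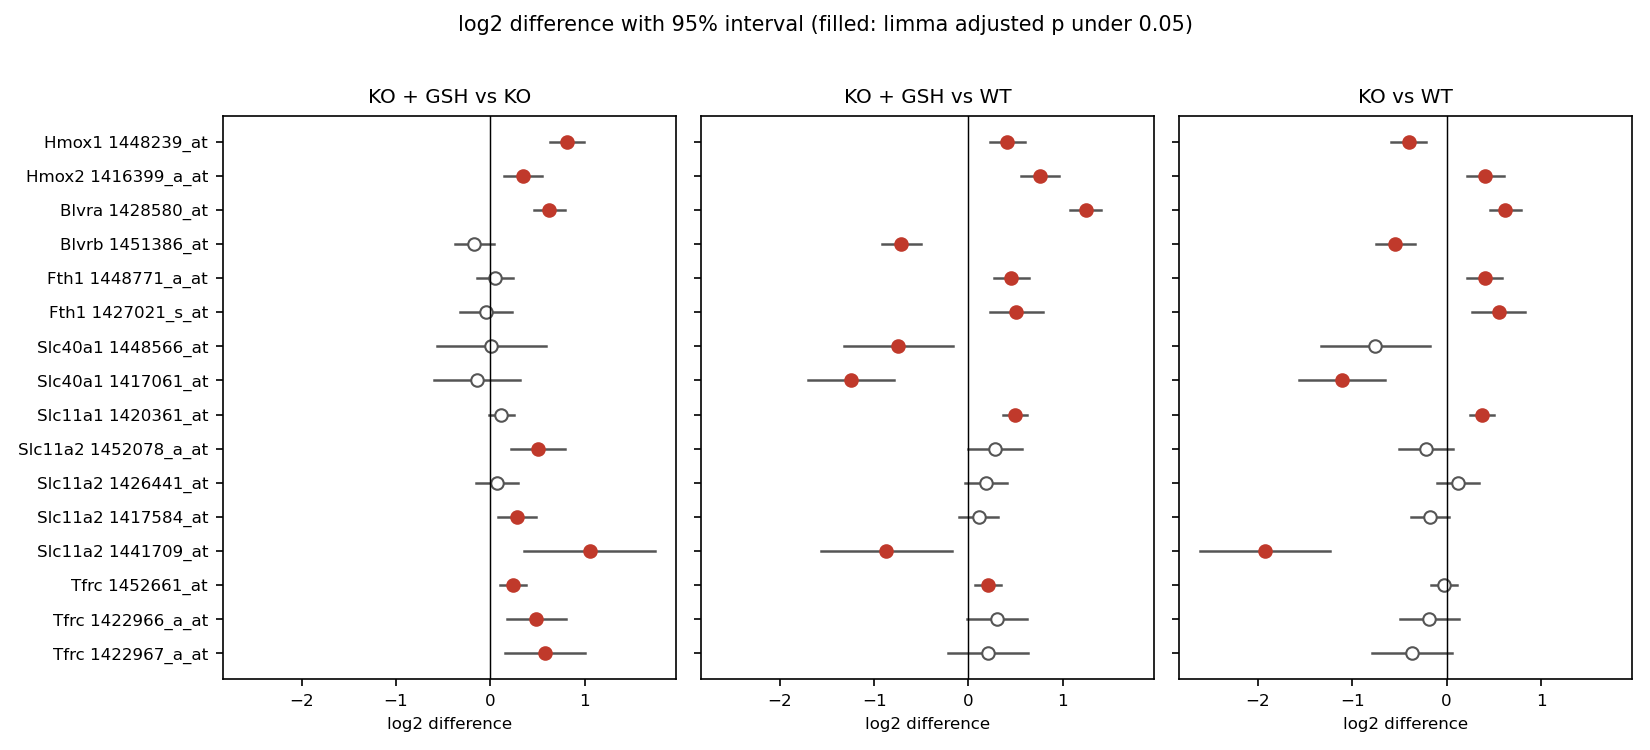
Differences on the log2 scale with 95% intervals for the 16 probe sets in 3 comparisons, knockout plus GSH against knockout, knockout plus GSH against wild type, and knockout against wild type. Filled points have a limma adjusted p under 0.05. With GSH against knockout no filled point lies left of 0, and Hmox1 has 0.81 there and -0.40 in knockout against wild type.

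Fth1, the heavy chain that gives ferritin its iron-oxidising activity, was higher in both knockout groups than in wild type. By probe set 1448771_a_at it read 27517, 23210.2 and 23679 with GSH, 22509, 27249.6 and 22228 in knockout, and 18608, 18006 and 17549 in wild type. Every knockout array, with or without GSH, lay above every wild-type array, while the knockout groups overlapped. The differences were 0.45 with GSH against wild type (SE 0.085, limma adjusted p = 0.0011), 0.40 in knockout against wild type (adjusted p = 0.00432 by limma) and 0.05 between the knockout groups (95% interval -0.14 to 0.24, limma adjusted p = 0.69). The 1427021_s_at probe set gave 20019 ± 4913 with GSH, 20778 ± 5527 in knockout and 13924 ± 1875 in wild type, with differences from wild type of 0.51 and 0.55 (adjusted p = 0.00724 and 0.00743 by limma). Its knockout and wild-type values overlapped, and neither call held without the set in the model (limma adjusted p = 0.116 and 0.141).

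Fth1 stood at the top of the scale, ranking 3 to 29 from the brightest of 45037 probe sets by 1448771_a_at. The brightest probe set of an array reached 24609.7 to 31838 with GSH and 23837 to 34114 in knockout, against 20216 to 23503 in wild type. Quantile normalisation, which gives every array the same distribution, brought the 1448771_a_at difference between knockout and wild type to 0.05 (limma adjusted p = 0.32), and that with GSH against wild type to 0.11 (0.0215). For 1427021_s_at it gave 0.28 with GSH against wild type and 0.28 in knockout against wild type (adjusted p = 0.00612 and 0.00906 by limma). So the sizes of the Fth1 differences, and the knockout call of 1448771_a_at, depend on this choice. With the replicate number as a block, 1448771_a_at and 1427021_s_at were not called in knockout against wild type (limma adjusted p = 0.0853 and 0.224). The call of 1427021_s_at with GSH against wild type was lost too (0.239). After gene-centring, Zfp62 (0.054), the membrane protein gene Itm2b (0.060) and Tmem9b (0.061) had the patterns closest to Fth1 by root mean square difference over the 9 arrays.

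Slc40a1, which encodes ferroportin, the iron exporter of the cell surface, was lower in both knockout groups. By probe set 1417061_at it read 75.9, 84.7 and 96.9 with GSH and 94.8, 100.3 and 87.8 in knockout, against 184, 193 and 235 in wild type. Both knockout groups lay below every wild-type array, at 0.421 of the wild-type mean with GSH (-1.25, SE 0.21, limma adjusted p = 0.000467) and at 0.463 of it without (-1.11, adjusted p = 0.00208 by limma). These signals are dim, and 2 of 3 arrays with GSH, 3 of 3 knockout arrays and 3 of 3 wild-type arrays exceeded the bacterial control level of their own array. The other Slc40a1 probe set, 1448566_at, read 171, 143 and 87.3 with GSH and 105, 198 and 100.1 in knockout, against 227, 207 and 214 in wild type. It too lay below wild type in both knockout groups (-0.75 with GSH, limma adjusted p = 0.0379, and -0.76 in knockout, 0.051 by limma). The call with GSH was lost without wild type replicate 3 or 5 (adjusted p = 0.0756 and 0.196 by limma) and without replicate 3 or 4 of the GSH group (0.0794 and 0.168), and knockout against wild type passed without knockout replicate 3 (0.0149) and without replicate 4 of the GSH group (0.048). Between the knockout groups the intervals were -0.60 to 0.31 for 1417061_at and -0.57 to 0.59 for 1448566_at. The nearest patterns to 1448566_at were those of Fam136a and Ldlrad4 (0.20 each) and Neto1 (0.21).

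Slc11a1, which encodes NRAMP1, the divalent metal transporter of phagosomes in macrophages and neutrophils, rose in both knockout groups. Its signals were 3368, 3296 and 3112 with GSH and 3141, 3171 and 2721 in knockout, against 2312, 2458 and 2179 in wild type. The knockout groups overlapped with each other and lay above wild type. The difference was 0.49 with GSH (SE 0.059, limma adjusted p = 3.97e-05) and 0.38 in knockout (adjusted p = 0.000656 by limma), and 0.12 between the knockout groups (95% interval -0.01 to 0.25, limma adjusted p = 0.154). With the replicate number as a block the call in knockout against wild type was lost (limma adjusted p = 0.0843). Of the 19 macrophage markers 18 were called higher and 1 was not called with GSH against wild type (median 1.31). In knockout against wild type 16 were higher and 2, Siglecf (-1.80) and Itgax (-1.18), were lower (median 0.94). With GSH against knockout, where Slc11a1 was not called, 11 were higher, 2 lower and 6 not called (median 0.44). The defining marker Adgre1 averaged 13736 ± 181 with GSH and 10155 ± 899 in knockout, against 4276 ± 606 in wild type, and the phagocyte Fc receptor gene Fcgr1 2551 ± 65.8 and 2375 ± 68.6 against 347 ± 11.9. The part of these markers in the Slc11a1 result was not tested.

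Slc11a2 encodes DMT1, which carries ferrous iron across the endosomal and intestinal membrane, and was read by 4 probe sets whose patterns differed. The annotation does not say which of the gene's transcript forms each detects. The brightest, 1452078_a_at, read 1473, 1558 and 1304 with GSH, 1100.1, 867 and 1101 in knockout, and 1352, 1294 and 944 in wild type. It was higher with GSH than in knockout (0.50, SE 0.13, limma adjusted p = 0.0104), which missed the threshold without the set term (0.0512). For knockout against wild type it gave -0.44 in set 2 and 0.22 in set 3 (-0.22 in all, adjusted p = 0.244 by limma). Within set 2 alone, and likewise without knockout replicate 4, that fall passed the test (limma adjusted p = 0.0313 and 0.0391). With GSH against wild type it gave 0.29 (limma adjusted p = 0.0964), which passed without knockout replicate 3 (0.0324) or 4 (0.0434).

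The 1417584_at probe set of Slc11a2 read 614, 674 and 686 with GSH, 517, 558 and 547 in knockout, and 640.0, 592 and 600.5 in wild type. The knockout arrays were the lowest 3 of the 9, with 0.28 for GSH against knockout (limma adjusted p = 0.0335). That call was lost without wild type replicate 4 (adjusted p = 0.0539 by limma), without knockout replicate 2 or 4 (0.0914 and 0.0871), and without replicate 3 or 4 of the GSH group (0.0973 and 0.119). Blocking on the replicate number, which pairs the knockout groups, gave 0.101, and leaving out the set term gave 0.0972 (limma adjusted p). By 1426441_at, with 720.1 ± 51.9 with GSH, 688 ± 80.9 in knockout and 632 ± 19.5 in wild type, no comparison passed (limma adjusted p = 0.629, 0.438 and 0.158 for GSH against knockout, knockout against wild type and GSH against wild type).

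The dim probe set 1441709_at was lowest in knockout. It read 139, 124 and 146 with GSH, 38.2, 105 and 69.4 in knockout, and 231, 224 and 296 in wild type, and 1 of the knockout values did not exceed the control level. The groups were apart, with -1.93 in knockout against wild type (SE 0.32, limma adjusted p = 0.000851), 1.05 with GSH against knockout (adjusted p = 0.0221 by limma) and -0.87 with GSH against wild type (limma adjusted p = 0.0423). The call with GSH against knockout was lost without knockout replicate 2 (0.67, limma adjusted p = 0.0674) or 4 (1.01, 0.0759) and without replicate 2 (1.00, 0.0639) or 4 (1.09, 0.0606) of the GSH group. It was also lost without the set term (limma adjusted p = 0.0545). The call with GSH against wild type was lost without any 1 of wild type replicates 3, 4 and 5, of the GSH replicates 2, 3 and 4, or without knockout replicate 4 (limma adjusted p = 0.0526 to 0.141).

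Tfrc, the receptor that takes up iron-loaded transferrin, was somewhat higher with GSH than in knockout by its 3 tested probe sets. By 1452661_at it read 2668, 2806 and 3399 with GSH, 2344, 2227 and 2958 in knockout, and 2443, 2403 and 2802 in wild type. In each group the set 3 array was the highest, so the groups overlapped, and the difference rests on the comparison within sets (0.26 in set 2 and 0.20 in set 3). It was 0.24 (SE 0.063, limma adjusted p = 0.0109) between the knockout groups and 0.21 with GSH against wild type (adjusted p = 0.0178 by limma). The call against wild type was lost without wild type replicate 5 (limma adjusted p = 0.0962), without replicate 3 or 4 of the GSH group (0.0582 and 0.0587) and without the set term (0.297).

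By 1422966_a_at Tfrc read 1949.5, 1353 and 783 with GSH, 1362, 1057 and 519 in knockout, and 1216, 1257 and 716 in wild type, and by 1422967_a_at 278, 269 and 177, then 208, 197 and 96.8, then 253, 317 and 107. Here the set 3 array was the lowest of each group, opposite to 1452661_at. With GSH against knockout the differences were 0.49 and 0.58 (limma adjusted p = 0.0202 and 0.0354). With the replicate number as a block the 3 Tfrc probe sets gave adjusted p = 0.115, 0.0837 and 0.15 by limma, and the count of these genes' probe sets called higher with GSH than in knockout was 5 in place of 9. Without the set term the 3 Tfrc probe sets gave limma adjusted p = 0.273, 0.488 and 0.428 in that comparison. The call of 1422966_a_at was lost without knockout replicate 3 (limma adjusted p = 0.0729) or 4 (0.107) and without replicate 2 (0.0839) or 4 (0.0547) of the GSH group. That of 1422967_a_at was lost without wild type replicate 3 (0.0551), without knockout replicate 2 (0.0639), 3 (0.0792) or 4 (0.0942), and without GSH replicate 4 (0.189). With GSH against wild type, 1422966_a_at gave 0.30 (limma adjusted p = 0.107), which passed without GSH replicate 3 (0.44, 0.031). No Tfrc probe set was called between knockout and wild type with set in the model (limma adjusted p = 0.763, 0.38 and 0.179).

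The other genes of heme and iron handling were described by 5 lists of 52 genes, of which 40 were measured above the signal filter. With GSH against knockout 11 of them were higher and 13 lower, with GSH against wild type 7 were higher and 14 lower, and in knockout against wild type 7 were higher and 13 lower. Over all probe sets fitted 35.4%, 44.7% and 29.1% were called in the same order. That share covers every probe set fitted, while the 40 genes were read by their brightest, so the sets are not alike. The median differences of the 40 genes were -0.08, -0.12 and -0.13.

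Among 7 heme synthesis genes, 2 were higher and 1 lower with GSH against knockout, 2 were lower and the other 5 not called with GSH against wild type, and 1 higher and 2 lower in knockout against wild type. Alas1, the rate-limiting enzyme of heme synthesis outside red cells, averaged 2648 ± 279 with GSH and 1370.1 ± 36.8 in knockout, against 2267 ± 197 in wild type (0.95 with GSH against knockout, limma adjusted p = 8.77e-06, and -0.72 in knockout against wild type, adjusted p = 0.000123 by limma). Urod, the uroporphyrinogen decarboxylase, moved the other way in both (-0.43 and 0.24). Uros rose with GSH against knockout (0.37), and Cpox fell in knockout (-0.90) and with GSH (-0.57) against wild type. Fech, which inserts iron into heme, was lower with GSH than in wild type (-0.39, limma adjusted p = 0.00241).

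Of 8 genes for heme transport and scavenging, 2 rose and 4 fell with GSH against knockout, 2 rose and 4 fell with GSH against wild type, and 2 rose and 2 fell in knockout against wild type. Slc48a1, which carries heme out of the endolysosome, averaged 1583 ± 128 with GSH and 1046 ± 152 in knockout, against 2239.9 ± 203 in wild type. It was lower in knockout by -1.11 (limma adjusted p = 8.2e-07) and higher with GSH than without it by 0.61 (adjusted p = 6.17e-05 by limma). Hp, the haemoglobin-binding haptoglobin, rose in knockout (0.97), as did Lrp1, a receptor of heme-loaded hemopexin (0.36). Lrp1 fell with GSH against knockout (-0.75), as did the porphyrin exporter Abcg2 (-0.48). Pgrmc1 was lower than in wild type with GSH (-0.56) and in knockout (-0.27, limma adjusted p = 0.0117).

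Of 9 iron uptake and reduction genes, 1 rose and 6 fell with GSH against knockout, 1 rose and 5 fell with GSH against wild type, and 2 rose and 2 fell in knockout against wild type. The metalloreductases Steap1 and Steap2 were lower with GSH, at 985 ± 107 and 1018 ± 88.1, against 2893 ± 192 and 2851 ± 515 in knockout (-1.56 and -1.47, limma adjusted p = 2.36e-07 and 2.45e-08). Beside them the fibroblast markers fell in 11 of 12 genes with a median of -2.47. In knockout against wild type 9 of the 12 were higher and 1 lower (median 0.42). Steap1 and Steap2 were not called there (-0.06 and 0.13, limma adjusted p = 0.694 and 0.197). The part of these markers in the Steap result was not tested. Lcn2, a carrier of iron-binding siderophores, rose with GSH against knockout (0.95) and was lower in knockout than in wild type (-0.20). The zinc and iron importers Slc39a14 and Slc39a8 changed in knockout against wild type by 0.44 and -0.63, and Slc39a8 stood at -1.44 with GSH against wild type.

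Of 8 genes for iron sensing and the hepcidin axis, 3 rose and 2 fell with GSH against knockout, 2 rose and 2 fell with GSH against wild type, and 2 rose and 4 fell in knockout against wild type. Hamp, which encodes hepcidin, the hormone that removes ferroportin from the cell surface, averaged 757 ± 72.9 with GSH and 229 ± 37.0 in knockout, against 957 ± 84.9 in wild type (1.73 with GSH against knockout, limma adjusted p = 1.34e-06, and -2.07 in knockout against wild type, adjusted p = 5.69e-07 by limma). Hamp2 is a close copy, and signal from the pair may be shared. Hfe, the hemochromatosis gene, rose stepwise (815 ± 5.50 with GSH and 458 ± 28.6 in knockout against 314 ± 31.5 in wild type). Bach1, the heme-sensing repressor of Hmox1, averaged 1262 ± 57.9 with GSH and 1536 ± 60.9 in knockout, against 1185 ± 40.9 in wild type. It was higher in knockout than in wild type (0.37, limma adjusted p = 0.00177) and lower with GSH than in knockout (-0.28, limma adjusted p = 0.00695). With GSH against wild type it was not called (0.09, limma adjusted p = 0.309). The part of Bach1 in the Hmox1 result was not tested. Aco1, the iron regulatory protein that is also the cytosolic aconitase, rose with GSH against knockout (0.50) and against wild type (0.21). Bmp6, an inducer of hepcidin in liver, was lower than in wild type with GSH (-1.53) and in knockout (-0.79, limma adjusted p = 0.0373). It was dim with GSH (76.6 ± 23.9 against 212 ± 11.8 in wild type), with 2 of 3 of those arrays above the control level.

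Of 8 genes for iron storage, chaperones and mitochondrial iron, 3 rose and 5 were not called with GSH against knockout, 2 rose and 1 fell with GSH against wild type, and 3 fell and 5 were not called in knockout against wild type. Ncoa4, the receptor that delivers ferritin to lysosomes, averaged 5900.1 ± 518 with GSH and 4025 ± 734 in knockout, against 4553 ± 609 in wild type (0.56 with GSH against knockout, limma adjusted p = 2.99e-05). The mitochondrial iron importer Slc25a37 rose with GSH against knockout (0.62), and the cysteine desulfurase Nfs1 did so by 0.27. Nfs1 and Glrx5, both of iron-sulfur cluster assembly, were lower in knockout than in wild type (-0.38 and -0.29).

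**Figure D4:**
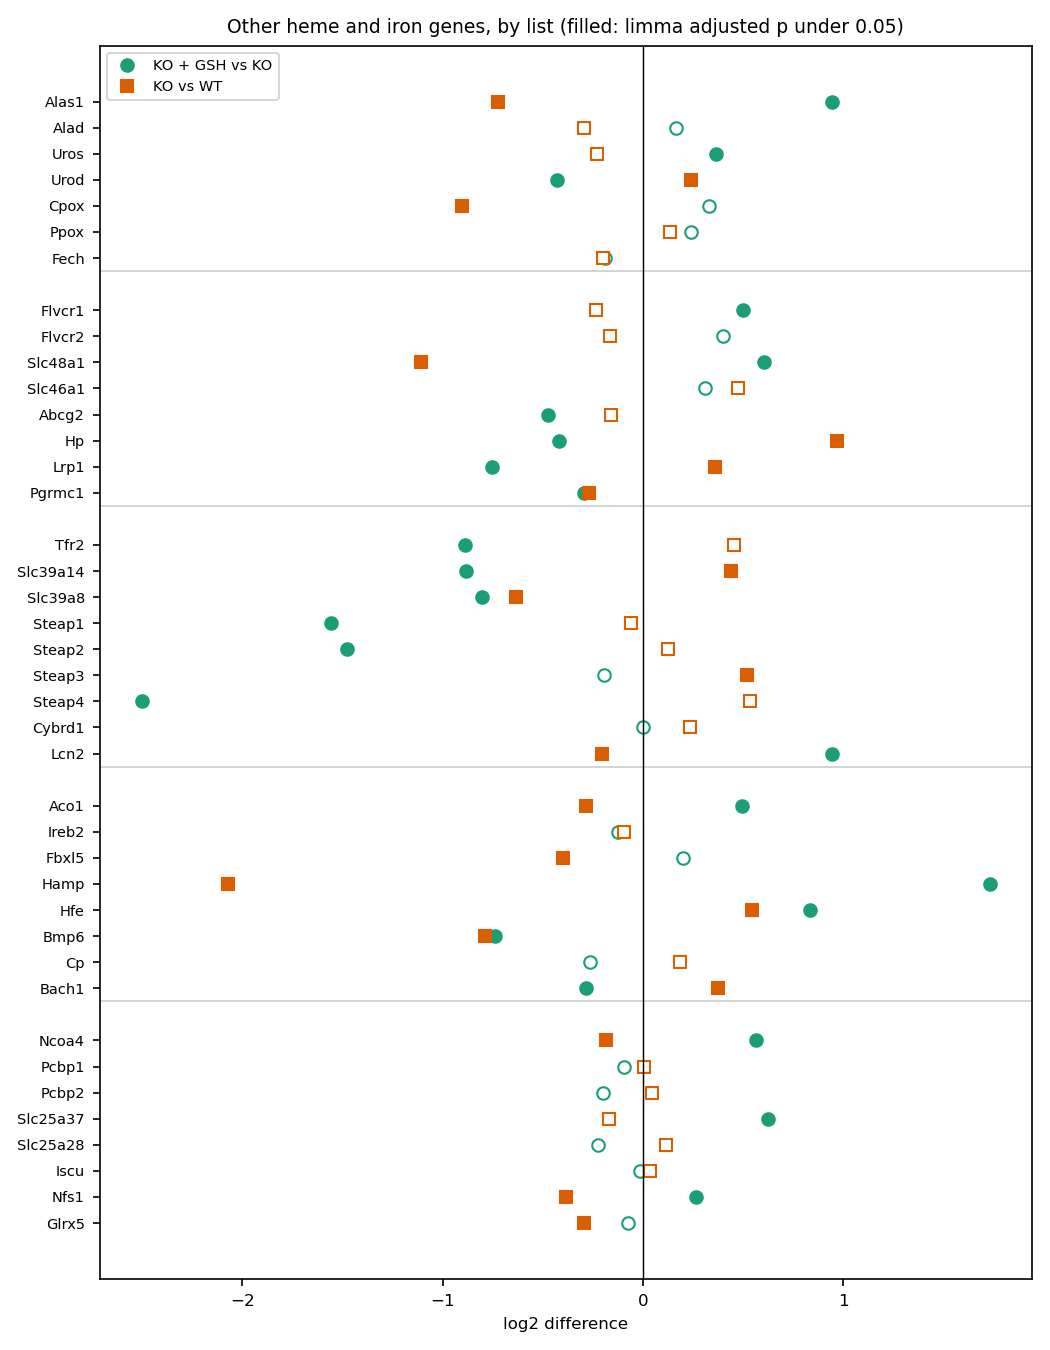
Differences on the log2 scale of the 40 other heme and iron genes, grouped from top to bottom as heme synthesis, heme transport and scavenging, iron uptake and reduction, iron sensing and the hepcidin axis, and iron storage, chaperones and mitochondrial iron. Circles are knockout plus GSH against knockout, squares knockout against wild type, and filled points have a limma adjusted p under 0.05. Hamp has 1.73 with GSH against knockout and -2.07 in knockout against wild type.

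The marker lists held genes of red cell precursors because these make heme in bulk. Of the 5 such genes measured, 3 (Hba-a1, Klf1 and Epor) were above the control level on every array and 1 (Epor) passed the signal filter. Hba-a1, an alpha globin gene, averaged 106 ± 26.6 with GSH and 80.6 ± 5.05 in knockout, against 125 ± 28.1 in wild type, and Klf1, a red cell transcription factor, 105 ± 38.4 and 126 ± 54.0 against 104 ± 25.5. Alas2, the red cell form of the first heme synthesis enzyme, averaged 11.1 with GSH, 11.7 in knockout and 9.77 in wild type, below the control level on every array.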

How the data were processed

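Total RNA was labelled and hybridised to 9 arrays. The deposited values are the authors' probe set intensity on a linear scale, 1 column per array, and a 2% trimmed mean of 500 on every array shows that they had been scaled. The sources used here do not name the summarising software. After 64 control probe sets were left out, 45037 were taken to log2 (over all arrays 2 values at 0 were set to 0.1). The 22519 at or above the median of mean log2 entered a limma model (version 3.58.1, R 4.3.3) holding group, set and an intensity trend. A Benjamini-Hochberg adjusted p under 0.05 was called. The control level is the 95th percentile of 27 bacterial control probe sets of the same array (43.5 to 82.9).

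Of the probe sets without controls, 932 had several symbols and 9160 none. Genes with several probe sets in the lists were read by the brightest. Replicate numbers 2, 3 and 4 are shared by the knockout groups, and deviations of same-numbered arrays from their group means correlated at 0.32, 0.29 and 0.67. The main model holds no pairing, and the numbers entered as pairs only in the alternative with a replicate block. Differently numbered arrays of set 2 correlated at 0.39 and 0.24, so these values do not separate pairing from set. With wild type only the numbers 3 and 4 are shared, and same-numbered deviations correlated at 0.30 and 0.42 for number 3 and at -0.45 and -0.48 for number 4, so no pairing was taken there. The code was tested on simulated data. The genes, lists and tests were chosen with earlier results of these data known. Named genes of each list were up to 3 per comparison with the smallest adjusted p among those called, and for Hmox1, Slc40a1 and Fth1 the 3 nearest patterns. Alternatives changed the filter, normalisation, offset, set term, arrays and call rule. The array number limits the precision.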

Additional observations from a re-analysis of the deposited data

Results flagged for a closer look

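The array carries 3 control probe sets for Tfrc along the transcript, which entered no test. The middle one read 149, 153 and 113 with GSH, 86.3, 85.6 and 57.8 in knockout and 103, 105 and 101 in wild type. It was picked out because every array with GSH (mean 138) lay above every wild-type array (mean 103), a signal outside the tested probe sets. Of all probe sets fitted, 22.3% were likewise higher without overlap in that comparison. Its signals were dim, though above the control level on every array. The 3' and 5' probe sets overlapped between these groups. The 3' probe set averaged 528 ± 111, 409 ± 145 and 513 ± 187 and the 5' one 141 ± 25.3, 112 ± 42.7 and 151 ± 47.4 in the order knockout with GSH, knockout and wild type, and their ratio ran from 3.08 to 4.44 over the 9 arrays.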

How the results depend on the processing

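No called value of the 16 probe sets reversed under any of the 18 alternatives. In all 17 limma alternatives in which they were tested, 2 of 9 calls with GSH against knockout held (Hmox1 and Blvra), 7 of 11 with GSH against wild type and 5 of 9 in knockout against wild type. Counts are given below in the order GSH against knockout, GSH against wild type, knockout against wild type. Without the set term 4574, 6181 and 2774 probe sets were called in place of 7964, 10074 and 6560, with 2 heme and iron probe sets higher in the first, 2 lower in the second and 3 higher in the third, and 7, 4 and 3 pathway genes higher, 9 lower in the second and 5 in the third. The replicate block gave 6586 and 3253 calls against wild type, 5 heme and iron probe sets higher in the first comparison, 2 lower in the second and 2 higher in the third, and 9 pathway genes lower in the second and 4 higher and 5 lower in the third. In the knockout pair it changed no call of these probe sets beyond the 4 named above. The study's fold rule asks for a 1.5-fold change in at least 6 of the 9 pairs of arrays between the groups compared. It gave 3409, 4517 and 2288 calls, 3, 2 and 0 heme and iron probe sets higher, 4, 3 and 1 pathway genes higher and 7, 5 and 5 lower. In knockout against wild type it called none of the probe sets of Hmox1, Hmox2, Blvra, Blvrb, Fth1 and Slc11a1. Set 2 alone gave 5 higher in the first, 2 lower in the second and 8 pathway genes lower in the third. No signal filter gave 2 lower in the second, and the 70th percentile filter, which tests fewer probe sets, 1 lower there and 2 in the third. With 1 array left out, heme and iron probe sets higher in the first ranged from 5 to 9 and lower in the second from 2 to 4, and pathway genes lower in the third from 8 to 14. Differences that were not called changed sign as follows. For GSH against knockout, Slc40a1 1448566_at gave -0.046 after quantile normalisation and -0.23 to 0.27 with 1 array left out, Fth1 1448771_a_at -0.016 to 0.13, Fth1 1427021_s_at -0.17 to 0.092 and Slc11a2 1426441_at -0.02 to 0.13. For GSH against wild type, Tfrc 1422966_a_at gave -0.26 and 1422967_a_at -0.42 with the block, and the second -0.050 in set 2. For knockout against wild type, Tfrc 1452661_at gave 0.10 with the block and -0.075 to 0.0031 with 1 array left out. In that comparison the block gave -0.75 for Tfrc 1422966_a_at (limma adjusted p = 0.0494, so called) and -0.997 for 1422967_a_at (0.0651). The cause of these changes was not tested, and against wild type the block joins arrays of set 2 and set 3 under number 4. Dim probe sets of Slc40a1 and Slc11a2 lie near the control level, which limits their precision.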
